A study of Mus musculus with 36 samples.

Results

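Twelve-hour rhythms were sought in the left ventricles of mice with TAC, short for transverse aortic constriction, in which a band around the arch of the aorta makes the left ventricle pump against a raised pressure. The members are the 18 arrays titled TAC, of 36 in the series, 1 array for each mouse. The hearts were taken 8 weeks after surgery at ZT03, ZT07, ZT11, ZT15, ZT19 and ZT23, with 3 TAC mice at each time, and the other 18 arrays came from SHAM-operated mice taken on the same schedule. ZT stands for zeitgeber time, hours on the scale of the light cycle. Strain, age, sex and light schedule were not stated for either group in the labels used here, which call the replicates biological. The times are 4 h apart, so 1 cycle of 12 h is seen at 3 points, and each 24-h day holds 2 cycles.

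Rhythms of 12 h, also called circa-semidian, stand beside the 24-h rhythm driven by the circadian clock. In mouse liver such rhythms are known for genes of the unfolded protein response, of secretory transport and of protein and lipid metabolism, and the transcription factor XBP1 has been tied to them there. In the pressure-loaded heart, the genes known best are those of hypertrophy and fibrosis: fetal sarcomere genes return, fibroblasts lay down collagen, and genes of fatty acid oxidation are less expressed. All of this is background and not a result of these arrays.

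For each of 12393 genes, the deposited values were fitted with a mean, a 24-h wave and a 12-h wave, and the 12-h wave was tested with limma. The amplitude is the height of the fitted 12-h wave above its middle on the log2 scale, so that peak and trough differ by 2 amplitudes. A 12-h wave peaks 2 times a day, and the first of its peaks in the day is given below. A 24-h rhythm whose shape is not a pure wave also leaves a 12-h wave in this fit. The test cannot tell such a shape from a separate 12-h rhythm. The values had been centred on a median of 0 within each surgery, so a value says where an array stands among the arrays of its own surgery, and no level was compared between TAC and SHAM.

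Some arrays carried transcripts of other tissue. Among TAC arrays, the mean of 10 airway epithelium markers was 1.21 in ZT23 replicate 1 and 0.77 in ZT03 replicate 3, against a highest mean of 0.11 in the other TAC arrays. In SHAM, ZT11 replicate 3 had a mean of 2.35 over 10 thymocyte markers and ZT23 replicate 3 an airway mean of 0.63. The mean of 8 adipocyte markers was above 0.5 in 5 TAC arrays, all 3 of ZT15, ZT11 replicate 3 and ZT19 replicate 2, with 2 of them above 1, and in 4 SHAM arrays. Markers of atrial muscle were low in all 3 TAC hearts at ZT23, with means of -0.36, -0.83 and -0.84. Of 10 cardiomyocyte markers, a list not limited to ventricular muscle, all were measured. Their list mean stayed between -0.17 and 0.12 over the TAC arrays, but centred values do not show how strongly a tissue's markers were expressed.

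A single gene passed the 12-h test in TAC hearts. Fam117b (Entrez 72750, chromosome 1), which encodes a little-studied protein, had a 12-h amplitude of 0.28 ± 0.04 (SE, n = 18) with peaks at ZT10.5 and ZT22.5, and the limma adjusted p was 0.0457. That is 1 of 12393 genes, or 0.00807%. The gene next in order had an adjusted p of 0.215. Genes of matrix, wound repair and muscle stress that were high at ZT11 and ZT23 stood among those that follow, and they are described below as not having passed.

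The promoters of Fam117b and of 3 of the genes that follow it are shown because these genes were high at the same times of day. Each is the 250 bases before the gene's start in RefSeq on GRCm38.p6, read 5′ to 3′ on the gene's strand. Capitals mark the CCAAT box (CCAAT, on either strand) in Fam117b, on the plus strand at chr1:59912756-59913005, and in Ehd4, on the minus strand at chr2:120154576-120154825. In Fgl2, on the plus strand at chr5:21372423-21372672, and Sprr1a, on the minus strand at chr3:92485882-92486131, capitals mark the AP-1 motif (TGANTCA, on either strand), which is bound by the FOS and JUN factors of stressed muscle.
Fam117b: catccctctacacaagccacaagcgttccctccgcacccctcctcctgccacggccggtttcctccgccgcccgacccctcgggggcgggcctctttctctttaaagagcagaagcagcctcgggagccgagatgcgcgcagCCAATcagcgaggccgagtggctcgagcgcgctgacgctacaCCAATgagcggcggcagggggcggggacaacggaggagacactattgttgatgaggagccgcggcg
Ehd4: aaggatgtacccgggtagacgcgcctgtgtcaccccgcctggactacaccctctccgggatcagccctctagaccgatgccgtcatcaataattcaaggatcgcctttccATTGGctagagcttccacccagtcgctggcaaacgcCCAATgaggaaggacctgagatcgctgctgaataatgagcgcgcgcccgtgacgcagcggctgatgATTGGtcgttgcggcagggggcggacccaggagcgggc
Fgl2: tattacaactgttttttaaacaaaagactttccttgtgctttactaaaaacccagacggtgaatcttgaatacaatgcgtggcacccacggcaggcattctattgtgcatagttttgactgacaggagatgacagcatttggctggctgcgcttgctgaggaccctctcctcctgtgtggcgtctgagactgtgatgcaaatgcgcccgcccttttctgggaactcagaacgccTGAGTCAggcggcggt
Sprr1a: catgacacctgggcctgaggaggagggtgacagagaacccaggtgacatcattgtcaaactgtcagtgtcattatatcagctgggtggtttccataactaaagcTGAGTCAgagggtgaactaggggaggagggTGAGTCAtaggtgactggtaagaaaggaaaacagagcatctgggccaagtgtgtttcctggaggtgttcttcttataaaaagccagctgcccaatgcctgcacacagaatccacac
Of the 20 genes with the smallest 12-h p in TAC, 18 had a promoter in the RefSeq table. The AP-1 motif stood in 3 of these 18 (Fgl2, Kdm3a and Sprr1a), against 6.75% of all 32851 promoters, and the CCAAT box in 9 of 18, against 33.8%. The TEAD motif (GGAATG, on either strand) stood in 4 and 12.6%, and the E-box CACGTG, bound by the clock's CLOCK and BMAL1 proteins, in 2 and 6.02%. Matches of different motifs can share a base or a pair of bases, and the matches are a description with no test.

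Fam117b had values of 0.64, 0.52 and 0.70 in the TAC hearts of ZT11, and every one lay above the 15 other TAC values. At ZT23 the values were 0.23, 0.05 and -0.07, between -0.29, 0.00 and -0.28 at ZT19 and -0.12, 0.00 and -0.15 at ZT03. The lowest ZT23 heart lay below the highest hearts of ZT19 and ZT03, so the ZT11 peak stood clear of its neighbours and the ZT23 peak did not. A 24-h wave of nearly the same size ran with the 12-h wave: its amplitude was 0.27, it peaked at ZT9.10, and its adjusted p was 0.00313. In SHAM hearts the 12-h amplitude of Fam117b was 0.07 ± 0.05 (SE, n = 18; unadjusted p = 0.363). The TAC minus SHAM test of the 12-h terms gave an adjusted p of 0.404, so the component was not shown to differ between surgeries. The call was lost, with adjusted p up to 0.275, on leaving out any 1 of 11 TAC arrays: ZT03 replicate 1, ZT07 replicates 2 and 3, ZT11 replicates 2 and 3, ZT15 replicates 1, 2 and 3, ZT19 replicate 1, and ZT23 replicates 1 and 2. The unadjusted p stayed under 0.05 and the amplitude at 0.26 or more in each of these. As the gene was picked for its small p in the same arrays, this adds no support.

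**Figure D1:**
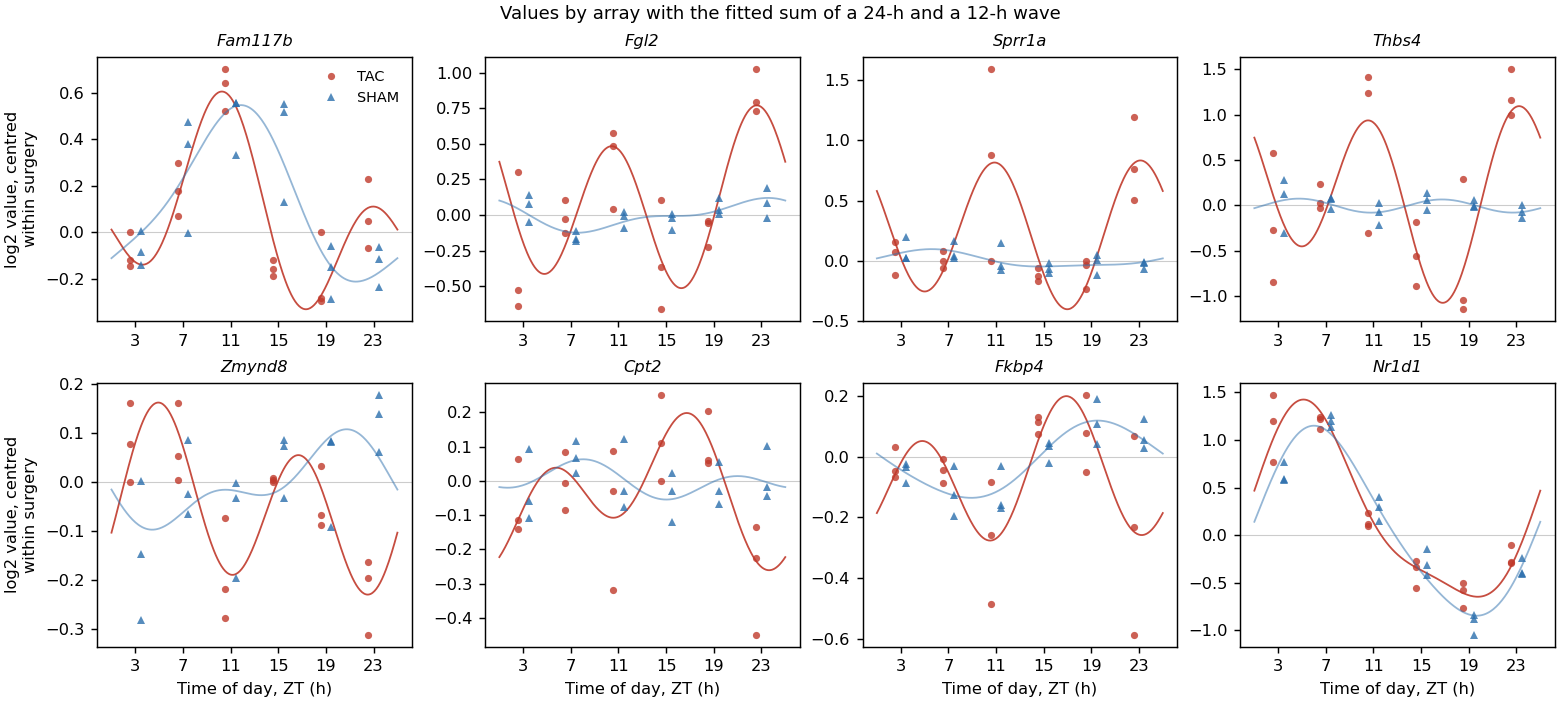
Values of 8 genes by array, on the log2 scale and centred within surgery, against time of day (TAC, red circles, left of SHAM, blue triangles; 3 arrays at each time); the lines are the fitted sums of a 24-h and a 12-h wave. Fam117b is high in TAC at ZT11 and less so at ZT23; Fgl2, Sprr1a and Thbs4 are high at both times, except that 1 ZT11 heart stays near or below 0; Zmynd8, Cpt2 and Fkbp4 are low at those times, and Nr1d1 is led by its 24-h wave.

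At an unadjusted p under 0.05, 962 genes (7.76%) had a 12-h component in TAC hearts and 667 (5.38%) in SHAM hearts. All of the 962 but Fam117b failed the adjustment, and they are described as a population. In 260 of the 962 the TAC peak lay between ZT10 and ZT11, and in 219 between ZT4 and ZT5, and the others peaked outside these hours. The SHAM counts in the same hours were 38 and 96. Peaks of all 12393 genes were also most frequent near these hours in TAC, with 1144 between ZT10 and ZT11 and 1805 between ZT4 and ZT5. By the side of the 12-h cycle, 437 genes (3.53%) peaked between ZT8 and ZT14, called the ZT11 side here, and 525 (4.24%) between ZT2 and ZT8, called the ZT5 side. Over all genes 4856 peaked on the ZT11 side and 7537 on the ZT5 side. Within these sides, 390 genes peaked between ZT9 and ZT12 in TAC and 107 in SHAM, and 442 peaked between ZT3 and ZT6 in TAC and 273 in SHAM.

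**Figure D2:**
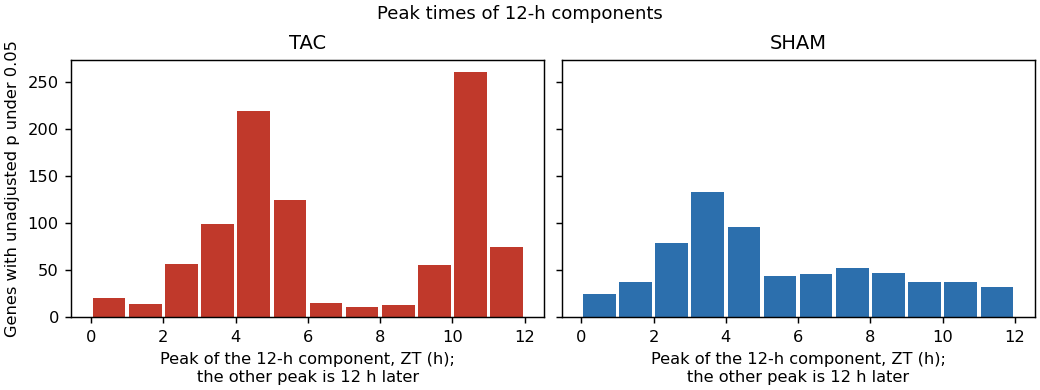
Number of genes with an unadjusted 12-h p under 0.05 by the time of their first daily 12-h peak, in 1-h steps, in TAC (left) and SHAM (right); the same wave peaks again 12 h later. The TAC genes gather between ZT4 and ZT5 (219) and between ZT10 and ZT11 (260), and the SHAM genes are highest between ZT3 and ZT4.

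The 12-h waves in TAC were small for most genes. The median amplitude over all genes was 0.040 in TAC and 0.033 in SHAM, and over the 962 genes 0.11 in TAC. An amplitude above 0.5 was reached by 27 genes in TAC, 22 of them among the 962, and by 3 genes in SHAM. In 795 of the 962, which were chosen by their 12-h p, the 12-h wave exceeded the 24-h wave. Of the 962, 36 also passed the 24-h test, a larger share than the 1.40% (174 genes) of all 12393 genes that passed it in TAC.

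The 20 genes with the smallest p divide by time. Fam117b, Fgl2, Ehd4, Sprr1a, Amot, Osmr, Kdm3a, Nabp1, Thbs4, Ltbp2, Timp1, Prkar1a, Capg, Angptl7 and Cebpd, 15 in all, peaked between ZT10.3 and ZT11.0 and again 12 h later. Zmynd8, Nr1d1, LTO1, Nme6 and Scara5 peaked between ZT4.59 and ZT5.25. Their amplitudes ran from 0.11 to 0.88 in TAC and from 0.013 to 0.13 in SHAM. Adjusted p-values other than that of Fam117b ran up to 0.364. Nr1d1 was the 1 gene of the 20 with an unadjusted p under 0.05 in SHAM.

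Fgl2, which encodes a fibrinogen-like protein of immune regulation and clotting, showed both peaks. The TAC values were 0.04, 0.58 and 0.49 at ZT11 and 1.03, 0.80 and 0.73 at ZT23. They were -0.64, -0.52 and 0.30 at ZT03, -0.03, 0.10 and -0.13 at ZT07, -0.36, 0.11 and -0.66 at ZT15 and -0.06, -0.23 and -0.04 at ZT19. All 3 ZT23 hearts lay above all other TAC hearts, while 3 of the 12 hearts of the 4 other times lay above the lowest ZT11 heart. The 12-h amplitude was 0.54 ± 0.09 (SE, n = 18), a peak 2.12 times the trough, with an adjusted p of 0.215. The 18 SHAM values lay between -0.18 and 0.19, and the amplitude was 0.05 ± 0.03 there.

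Sprr1a encodes a small proline-rich protein that is induced in stressed heart muscle cells. Its TAC values were 0.00, 0.88 and 1.59 at ZT11 and 0.51, 0.76 and 1.20 at ZT23. The 12 hearts of the other times lay between -0.23 and 0.15. Thus 5 of the 6 hearts at ZT11 and ZT23 stood above every other TAC heart, and replicate 1 of ZT11 stood among them. The amplitude was 0.58 ± 0.10 (SE, n = 18; adjusted p = 0.279), against 0.02 ± 0.03 in SHAM.

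Ehd4, which encodes a membrane-trafficking ATPase, had 12-h peaks at ZT10.6 with an amplitude of 0.28 ± 0.05 (SE, n = 18; adjusted p = 0.262). The 6 hearts of ZT11 and ZT23 lay between 0.08 and 0.42 and the 12 others between -0.54 and 0.11, so the groups overlapped by 1 heart of the other times. Osmr, the receptor for the cytokine oncostatin M that is known to drive remodelling of heart muscle cells, had an amplitude of 0.18 ± 0.03. Cebpd, a transcription factor of acute stress and inflammation, had 0.25 ± 0.05, with 0.31, 0.40 and 0.64 at ZT11 and 0.55, 0.05 and 0.12 at ZT23. Kdm3a, a histone demethylase, stood at 0.47, 0.33 and 0.40 at ZT23, above all other TAC hearts, but at 0.19, 0.07 and 0.03 at ZT11, where it overlapped with hearts of other times.

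Genes of collagen and matrix had the largest median 12-h amplitude of the 24 gene lists in TAC. Of 35 genes in the list, 32 were measured, and none passed the adjusted test. At an unadjusted p under 0.05, 21 of the 32 (65.6%) had a 12-h component in TAC, all with a peak between ZT10.2 and ZT11.2. In SHAM 6 of the 32 had one. The shares over all genes were 7.76% in TAC and 5.38% in SHAM. The median amplitude of the list was 0.29 in TAC and 0.070 in SHAM, beside 0.040 and 0.033 over all genes. All 32 members, whatever their p, peaked on the ZT11 side, where 4856 of all 12393 genes did, and had a larger amplitude in TAC than in SHAM. Mice also differed more in TAC, with an SD of the list mean at ZT11 of 0.46 against 0.046 in SHAM. A wider spread by itself raises fitted amplitudes. The members share a tissue source and cannot be counted as separate observations. The TAC minus SHAM test gave an unadjusted p under 0.05 for 20 of the 32 and an adjusted p under 0.05 for none.

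Thbs4, a thrombospondin that is induced in loaded and injured muscle, had values of -0.31, 1.24 and 1.41 at ZT11 and of 1.16, 0.99 and 1.50 at ZT23 in TAC. The values were -0.85, -0.28 and 0.57 at ZT03, 0.03, 0.24 and -0.03 at ZT07, -0.18, -0.56 and -0.89 at ZT15 and 0.29, -1.04 and -1.14 at ZT19. Apart from replicate 1 of ZT11, the hearts of ZT11 and ZT23 stood above all others. The amplitude was 0.88 ± 0.18 (SE, n = 18), a peak 3.39 times the trough, with an adjusted p of 0.364, against 0.07 ± 0.04 in SHAM.

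Ltbp2, a binding protein of the TGF-beta and fibrillin matrix, had an amplitude of 0.79 ± 0.16, and Timp1, an inhibitor of matrix metalloproteinases, one of 0.59 ± 0.12 (SE, n = 18; adjusted p = 0.364 for both). In both, the ZT11 heart of replicate 1 was low, at -0.28 for Ltbp2 and -0.22 for Timp1, where the other ZT11 hearts lay between 0.97 and 1.32. Postn, which encodes the matricellular protein periostin of activated fibroblasts, and the collagens Col1a1 and Col3a1 were chosen after their values were seen. Their amplitudes were 0.96 ± 0.22, 0.42 ± 0.10 and 0.54 ± 0.13. The Postn values at ZT03 were -1.44, -0.71 and 0.83, a spread among mice of 1 time no narrower than the 2 amplitudes between the fitted peak and trough.

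The mean over the 32 matrix genes shows how far mice of the same time differed. In TAC it was -0.22, 0.46 and 0.66 at ZT11 and 0.63, 0.35 and 0.49 at ZT23, and at ZT03 it was -0.42, -0.12 and 0.41. The means of the other times were 0.01, 0.18 and -0.04 at ZT07, -0.17, -0.13 and -0.63 at ZT15 and 0.02, -0.28 and -0.40 at ZT19. ZT23 was the time at which all 3 TAC hearts were high. At ZT11 and ZT03 high and low hearts stood side by side. The SHAM hearts stayed between -0.12 and 0.24. Fibroblast markers moved with the list: 5 of 10 had an unadjusted p under 0.05 in TAC, all with a peak near ZT11, and the marker mean was 0.31 ± 0.43 at ZT11 and 0.46 ± 0.15 at ZT23 (SD, n = 3 each). Among all genes 7.76% had such a p in TAC. Of these 5 markers 4 are also on the matrix list, so the lists are not separate. In whole tissue, more cells of a type and more RNA per cell cannot be told apart.

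**Figure D3:**
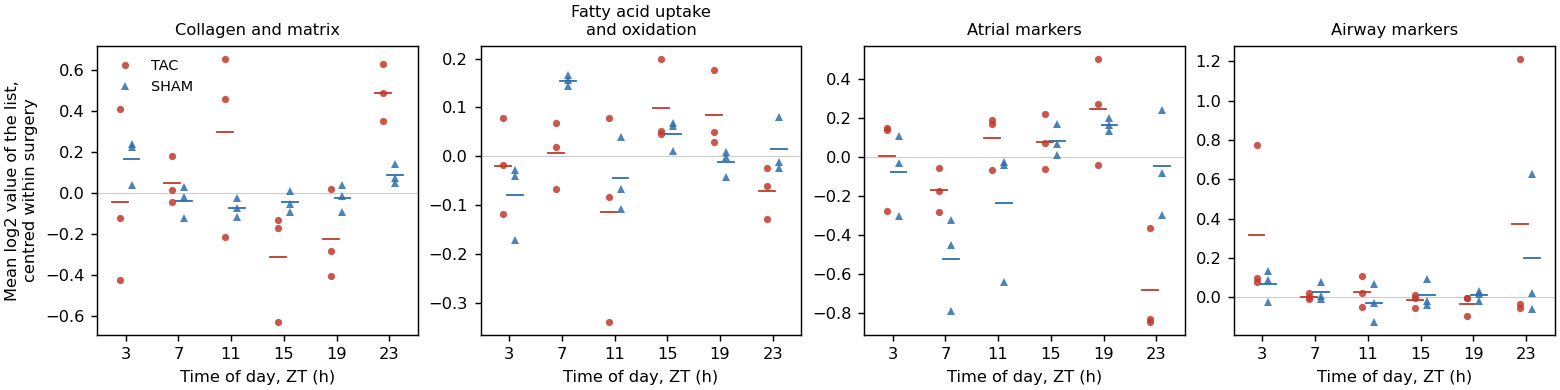
Mean log2 value of 4 gene lists by array against time of day (TAC, red circles, left of SHAM, blue triangles; bars are means of 3 arrays; each panel has its own scale). The matrix mean of TAC hearts is high at ZT23 in all 3 mice and spread widely at ZT03 and ZT11; atrial markers are low at ZT23 in TAC, and airway markers are high in single arrays.

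Single hearts weighed on the counts. Without TAC ZT11 replicate 1, whose matrix mean was the low one of its time, 39 genes passed the 12-h test, 32 of them with a peak on the ZT11 side, 9 of them matrix genes and 12 among the 20 described above. Without TAC ZT23 replicate 1, the array with the airway transcripts, 0 genes passed in limma and 650 had an unadjusted p under 0.05. Without TAC ZT03 replicate 3, the other array with airway transcripts, 3 passed and 1301 had an unadjusted p under 0.05. All 20 genes kept an unadjusted p under 0.05 on leaving out any 1 TAC array. They were chosen by their small p in the same arrays, so this adds no support.

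With the matrix list mean as a covariate, the number of genes with an unadjusted p under 0.05 in TAC fell to 229, against 962 without it, and the number passing was 0. Of the 20 genes described above, 9 kept an unadjusted p under 0.05. With the value of Myh7, a marker of hypertrophy, as the covariate, the counts were 225 genes and 10 of the 20. Both covariates carry the 12-h pattern of their own genes, so an effect of time on remodelling and a difference in remodelling between mice of different times cannot be told apart here.

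Of 20 measured genes of the ventricular fetal programme and hypertrophy, none passed the adjusted test. At an unadjusted p under 0.05 there were 7 in TAC and 3 in SHAM, beside 7.76% and 5.38% of all genes. Of the 7, 5 peaked near ZT11. Over all 20 members 13 peaked on the ZT11 side and 7 on the ZT5 side, beside 4856 and 7537 of all 12393 genes. The TAC list mean was -0.0060 at ZT11, 0.054 at ZT19 and 0.092 at ZT23. Myh7, the slow myosin heavy chain of the fetal and the failing mouse ventricle, had an amplitude of 1.02 ± 0.23 (SE, n = 18; adjusted p = 0.364), with values of -0.32, 1.17 and 0.75 at ZT11 and of 1.54, 1.62 and 0.96 at ZT23. At ZT03 it stood at -1.70, -0.54 and 0.32 and at ZT15 at -0.30, -0.28 and -1.95, and the 18 SHAM hearts lay between -0.37 and 0.32. Uchl1, a ubiquitin hydrolase, had an amplitude of 0.26 ± 0.06 and Fhl1, a LIM protein of the stretch response, one of 0.44 ± 0.10. Both peaked between ZT10.5 and ZT10.6.

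The remaining 2 of the 7, the atrial light chains Myl7 and Myl4, both named after their values were seen, peaked near ZT5. Myl7 stood at -1.30, -2.81 and -2.70 at ZT23 in TAC and at 0.45, -0.42 and -0.04 at ZT11, and its lowest hearts were those of ZT23 alone. Sln, the atrial calcium pump regulator sarcolipin, had the same shape, at -0.52, -1.65 and -1.55 at ZT23 and 0.29, -0.31 and 0.04 at ZT11. With the means of the atrial and adipocyte markers as covariates, the TAC amplitude was 0.32 for Myl7 and 0.145 for Sln. Each was the lowest for its gene among 37 alternative fits. Both genes are atrial markers themselves, so this fit cannot show the part of atrial tissue in these values, which was not tested.

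Of 28 measured sarcomere and Z-disc genes, none passed the adjusted test, 7 had an unadjusted p under 0.05 in TAC and 3 in SHAM, and 6 of the 7 peaked on the ZT11 side. The TAC mean over the 28 was -0.030 at ZT11, below its 0.018 at ZT07, and 0.099 at ZT23. Pdlim3 and Pdlim5, Z-disc adaptor proteins, had amplitudes of 0.23 ± 0.05 and 0.15 ± 0.04, and Actn2, the alpha-actinin that anchors actin at the Z-disc, one of 0.091 ± 0.026 (SE, n = 18; adjusted p from 0.364 to 0.466). Of 10 cardiomyocyte markers, 1 had an unadjusted p under 0.05 in TAC and 0 in SHAM.

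Immediate early genes respond within minutes to stretch and hormones. In TAC 7 of 24 had an unadjusted p under 0.05, all on the ZT11 side, 1 of 24 did in SHAM, and none passed the adjusted test. Among all genes 7.76% had such a p in TAC, with 437 of these 962 on the ZT11 side, and 5.38% in SHAM. The TAC mean over all 24 was 0.03 ± 0.11 at ZT11 and 0.25 ± 0.15 at ZT23 (SD, n = 3 each), and the list as a whole was no higher at ZT11 than at ZT15, where it was 0.03 ± 0.17. Ccn2, the connective tissue growth factor, led with an amplitude of 0.73 ± 0.16 (SE, n = 18; adjusted p = 0.364). It stood at -0.14, 0.90 and 0.92 at ZT11 and at 1.43, 0.66 and 0.95 at ZT23, and 4 of the 12 other TAC hearts lay above the lowest of these. Klf4 had an amplitude of 0.30 ± 0.09 and peaked at ZT11.4, and Nr4a1, an orphan nuclear receptor, 0.19 ± 0.06 with its peak at ZT11.3.

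Among 18 glucocorticoid targets, 5 had an unadjusted p under 0.05 in TAC and 3 in SHAM, beside 7.76% and 5.38% of all genes. All 5 peaked between ZT9.53 and ZT10.8. Tsc22d3, the glucocorticoid-induced leucine zipper, had an amplitude of 0.23 ± 0.05 (SE, n = 18; adjusted p = 0.364) beside a 24-h wave of 0.33 that passed its own test (adjusted p = 0.00459). Its TAC values were 0.49, 0.29 and 0.60 at ZT11 and 0.17, -0.20 and -0.21 at ZT23, so the ZT11 peak carried most of the wave. Ddit4, an inhibitor of mTOR signalling that is also on the stress list, had an amplitude of 0.52 ± 0.13 and peaked at ZT9.74.

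Of 22 measured genes of glycolysis and glucose uptake, 7 had an unadjusted p under 0.05 in TAC and 3 in SHAM. The shares over all genes were 7.76% and 5.38%. Of the 7 in TAC, 4 peaked on the ZT11 side and 3 on the ZT5 side. Pfkp, the platelet-type phosphofructokinase, had a 12-h amplitude of 0.32 ± 0.07 and peaked at ZT10.4, Slc2a1, the basal glucose transporter GLUT1, one of 0.15 ± 0.04, and Ldha, a lactate dehydrogenase subunit, one of 0.14 ± 0.03 (SE, n = 18; adjusted p from 0.364 to 0.371). The 3 that peaked on the ZT5 side were Ldhb, Eno3 and Pfkm, named after their values were seen, which encode the heart-type lactate dehydrogenase subunit, the muscle enolase and the muscle phosphofructokinase. They had peaks at ZT4.74, ZT4.50 and ZT4.75. The remaining gene on the ZT11 side was Hk1, a hexokinase, also named after its values were seen, with an amplitude of 0.21 ± 0.06. None of the 22 passed the adjusted test.

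Of 31 measured genes of fatty acid uptake and oxidation, 27 peaked on the ZT5 side in TAC, whatever their p. Over all 12393 genes, 7537 peaked on that side and 7.76% had an unadjusted 12-h p under 0.05 in TAC, and 5.38% in SHAM. Of the 31, 15 had an unadjusted p under 0.05 in TAC and 4 in SHAM, none passed the adjusted test, and all 15 peaked between ZT4.03 and ZT6.00. The list's median amplitude was 0.12 in TAC and 0.072 in SHAM. The amplitudes of these 15 ran from 0.11 to 0.26 in TAC, and those of the 21 matrix genes counted above from 0.12 to 0.96.

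Cpt2, the inner-membrane carnitine palmitoyltransferase, had an amplitude of 0.15 ± 0.04 and a peak at ZT5.17 (SE, n = 18; adjusted p = 0.455). Its TAC values were 0.09, -0.32 and -0.03 at ZT11 and -0.45, -0.22 and -0.13 at ZT23, against 0.00, 0.11 and 0.25 at ZT15 and 0.05, 0.06 and 0.20 at ZT19. The 6 hearts of ZT03 and ZT07 lay between -0.14 and 0.08 and overlapped with those of ZT11, so the trough at ZT23 was clearer than the crest at ZT5. Etfb, a subunit of the electron transfer flavoprotein that takes electrons from fatty acid oxidation, had an amplitude of 0.18 ± 0.05 and peaked at ZT4.48. Acot1, an acyl-CoA thioesterase, had 0.17 ± 0.05 in TAC and 0.23 ± 0.09 in SHAM, where its unadjusted p was 0.0498, with peaks at ZT5.92 and ZT7.22.

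Of 58 measured subunits of oxidative phosphorylation, none passed the adjusted test, 8 (13.8%) had an unadjusted p under 0.05 in TAC and 0 in SHAM. In TAC 55 of the 58 peaked on the ZT5 side. Over all genes the TAC values were 7.76% and 7537 of 12393. Ndufa8 of complex I, Sdha of complex II and Uqcrc1 of complex III had amplitudes of 0.11 ± 0.03, 0.14 ± 0.04 and 0.10 ± 0.03 and peaks between ZT4.72 and ZT5.02 (SE, n = 18; adjusted p from 0.476 to 0.486). Sdha stood at 0.11, -0.37 and -0.18 at ZT11. Replicate 1 of ZT11, the heart with the low matrix mean of that time, had the highest values of the 3 in these subunits and in Cpt2. Of 52 mitochondrial ribosomal proteins, 1 had an unadjusted p under 0.05 in TAC and 0 in SHAM, and 45 peaked on the ZT5 side. The subunits share a tissue source and cannot be counted as separate observations.

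Of 23 measured genes of sterol and fatty acid synthesis, 20 peaked on the ZT5 side in TAC, beside 7537 of all 12393 genes. None passed the adjusted test, 9 had an unadjusted p under 0.05 in TAC and 1 in SHAM, and 8 of the 9 peaked on the ZT5 side. Such a p was found for 7.76% of all genes in TAC and 5.38% in SHAM. Elovl6, a fatty acid elongase, had an amplitude of 0.17 ± 0.05 and peaked at ZT3.32, Srebf1, the sterol regulatory transcription factor, 0.10 ± 0.03 at ZT4.12, and Acly, which makes cytosolic acetyl-CoA, 0.17 ± 0.05 at ZT3.62 (SE, n = 18; adjusted p from 0.445 to 0.471). Elovl6 stood at 0.38, 0.20 and 0.68 at ZT15 and at 0.05, -0.03 and -0.01 at ZT03, so ZT03 did not share the crest of ZT15. The brown fat marker Ucp1, named after its values were seen, had an amplitude of 0.65 ± 0.16 and peaked at ZT2.47. The mean of 8 adipocyte markers in TAC was also high at ZT15, at 0.88, 0.70 and 1.16, and in ZT11 replicate 3 and ZT19 replicate 2, at 1.11 and 0.59. In the same 5 hearts the mean over the 23 synthesis genes was 0.25, 0.28, 0.39, 0.23 and 0.39, and in the other TAC hearts at most 0.15. Thrsp is on both lists. In a fit that took the mean of the adipocyte markers and that of the atrial markers as covariates, the TAC amplitude was 0.12 for Elovl6 (unadjusted p = 0.0520), 0.13 for Srebf1 (unadjusted p = 0.00131) and 0.14 for Acly (unadjusted p = 0.00384).

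Zmynd8, a chromatin reader that binds acetylated histones, had the smallest p after Fam117b. Its TAC values were 0.08, 0.16 and 0.00 at ZT03 and 0.16, 0.05 and 0.00 at ZT07, and 0.01, 0.00 and 0.00 at ZT15 and -0.07, 0.03 and -0.09 at ZT19. They were -0.07, -0.28 and -0.22 at ZT11 and -0.31, -0.16 and -0.20 at ZT23. A single heart of the 12 at other times lay below the highest of the hearts of ZT11 and ZT23. The amplitude was 0.16 ± 0.03 (SE, n = 18; adjusted p = 0.215), against 0.05 ± 0.04 in SHAM, and the two-trough shape was thus clearer than in Cpt2.

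Nme6, of the nucleoside diphosphate kinase family, and LTO1, an adaptor for iron-sulphur protein assembly known from yeast and human cells, had amplitudes of 0.11 ± 0.02 each. Both were lowest at ZT23, where Nme6 stood at -0.26, -0.17 and -0.12 and LTO1 at -0.29, -0.23 and -0.13. Scara5, a ferritin receptor of stromal cells, was lowest there too, at -0.20, -0.36 and -0.28, with an amplitude of 0.15 ± 0.03. At ZT11 Scara5 stood at 0.02, -0.23 and 0.09, within the range of the other times.

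Genes of hypoxia and angiogenesis lay on both sides of the cycle. Of 21 measured, 6 had an unadjusted p under 0.05 in TAC, 3 on each side of the cycle, and 1 did in SHAM. Among all genes the shares were 7.76% in TAC and 5.38% in SHAM. Kdr, the main VEGF receptor of endothelium, had an amplitude of 0.22 ± 0.05 (SE, n = 18; adjusted p = 0.364) and stood at -0.57, -0.34 and -0.40 at ZT11, below all other TAC hearts. At ZT23 it stood at -0.30, -0.02 and 0.06, within the range of the others. Aplnr, the receptor for apelin, had an amplitude of 0.39 ± 0.11 and stood at -0.91, -0.54 and -0.86 at ZT11. Of 10 endothelial markers, Kdr alone had an unadjusted p under 0.05 in TAC.

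The pathways known for 12-h rhythms in liver were measured as well. Of 27 genes of the endoplasmic reticulum chaperones and unfolded protein response, 2 had an unadjusted p under 0.05 in TAC (7.41%, against 7.76% of all genes) and 3 in SHAM. Hspa5, the main chaperone of the endoplasmic reticulum, had a 12-h amplitude of 0.08 ± 0.06 (SE, n = 18; unadjusted p = 0.411), and Xbp1 one of 0.03 ± 0.04 (unadjusted p = 0.729), both named after their values were seen. Hspa5 instead had a 24-h wave of 0.28 that passed its test (adjusted p = 0.0408), with values of 0.13, 0.50 and 0.33 at ZT19 and -0.08, -0.25 and -0.23 at ZT07. The 2 genes were P4hb, a protein disulphide isomerase that also serves collagen prolyl hydroxylase, which peaked at ZT10.9 as the collagens did with an amplitude of 0.18 ± 0.04, and Sdf2l1, a chaperone cofactor, which peaked at ZT3.68.

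Secretory transport genes had 4 of 41 in TAC (9.76%, against 7.76% of all genes) and 3 of 41 in SHAM at an unadjusted p under 0.05. Spcs3, a signal peptidase subunit, led with 0.20 ± 0.05 and a peak at ZT10.8 (SE, n = 18; adjusted p = 0.372). In the integrated stress response and ATF4 targets the counts were 6 of 27 in TAC and 1 of 27 in SHAM. The shares over all genes were 7.76% in TAC and 5.38% in SHAM. Ppp1r15a, a phosphatase subunit that ends the stress response, stood at 0.42, 0.31 and 0.33 at ZT23 and at 0.00, 0.15 and 0.00 at ZT11, and Nupr1, a stress-induced chromatin protein, had an amplitude of 0.28 ± 0.07.

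Cytosolic heat shock chaperones had 4 of 23 in TAC and 5 of 23 in SHAM, and all 4 peaked on the ZT5 side, as did 19 of the 23 members. Their median amplitude was 0.10 in TAC and 0.045 in SHAM. Over all genes, 7.76% had such a p in TAC and 5.38% in SHAM, and 7537 of 12393 peaked on the ZT5 side in TAC. Fkbp4, a co-chaperone of HSP90 and steroid receptors, had an amplitude of 0.20 ± 0.05 (SE, n = 18; adjusted p = 0.372), with -0.08, -0.49 and -0.26 at ZT11 and -0.59, -0.23 and 0.07 at ZT23, against -0.09 to 0.21 at the other times. Hsph1, of the HSP110 family, had 0.36 ± 0.10 and stood at -0.92, -0.71 and 0.42 at ZT23, so 1 heart of that time was among the highest.

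Of the other housekeeping groups, the counts in TAC were 3 of 45 splicing factors, 3 of 38 cytosolic ribosomal proteins, 1 of 32 proteasome subunits and 0 of 8 subunits of the TCP1 chaperonin. In SHAM they were 4, 1, 0 and 0. Shares of 0 to 7.89% in TAC stand near or below the 7.76% of all genes. The 20 interferon-stimulated genes had 2 in TAC and 0 in SHAM, and 10 macrophage markers had 0 in TAC and 2 in SHAM. Calcium handling and ion channel genes had 2 of 26 in each surgery, in TAC 7.69% against 7.76% of all genes.

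**Figure D4:**
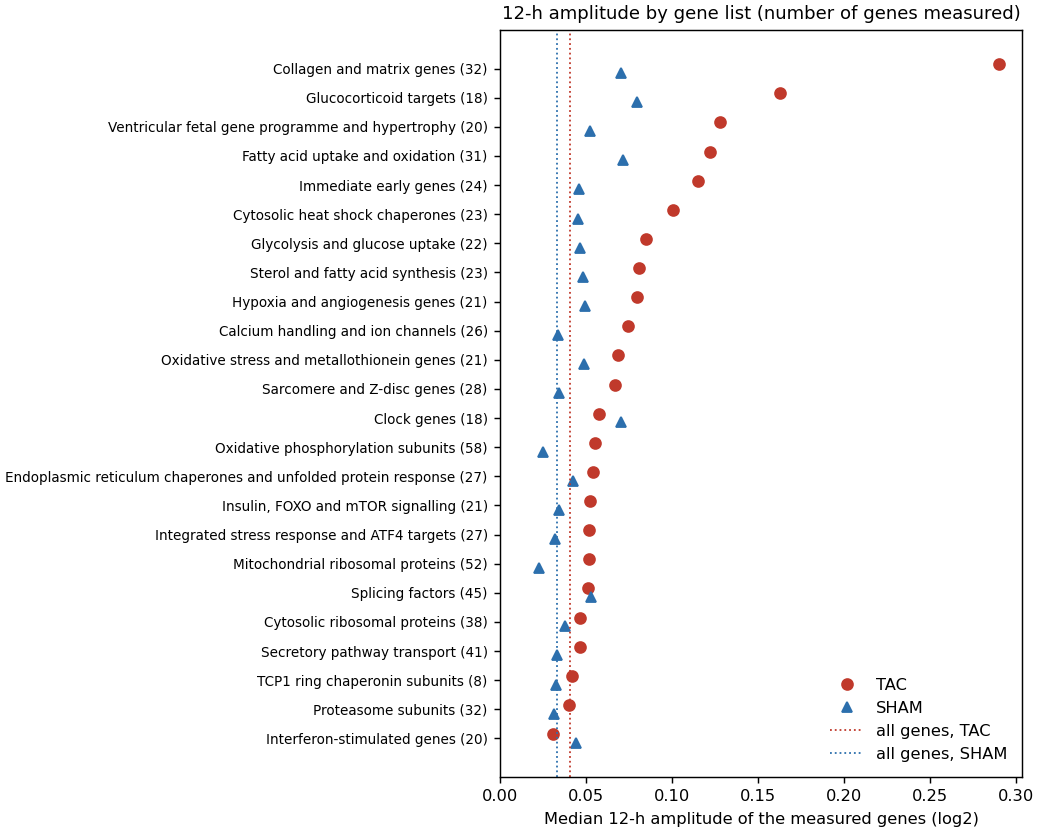
Median 12-h amplitude (log2) of 24 gene lists in TAC (red circles) and, just below, SHAM (blue triangles), with the number of genes measured in parentheses; dotted lines are the medians over all genes. Matrix genes are at 0.29 in TAC and 0.070 in SHAM, and the unfolded protein response at 0.054 and 0.042.

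Clock genes were led by their 24-h waves in TAC. Of 18 measured clock genes, 15 passed the 24-h test in TAC, as did 1.40% of all genes. An unadjusted 12-h p under 0.05 was found for 1 of 18 (5.56%) in TAC, against 8 of 18 in SHAM. The shares over all genes were 7.76% in TAC and 5.38% in SHAM. None of the 18 had a larger 12-h than 24-h amplitude in TAC. Nr1d1, which encodes the repressor REV-ERB alpha, was that 1: its values were 1.20, 1.48 and 0.77 at ZT03 and 1.24, 1.12 and 1.23 at ZT07, and between -0.77 and 0.23 at all later times. The 12-h amplitude was 0.25 ± 0.05 (SE, n = 18; adjusted p = 0.364) on a 24-h wave of 0.98, and in SHAM it was 0.13 ± 0.04 with almost the same peak, at ZT4.59 in TAC and ZT4.65 in SHAM. The means of Nr1d1 over the 6 times had 1 maximum a day and not 2.

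The activator Arntl, the D-box factor Dbp and the deubiquitinase gene Usp2 had larger 12-h terms in SHAM than in TAC. Amplitudes were 0.06 ± 0.04 in TAC and 0.13 ± 0.03 in SHAM for Arntl, 0.18 ± 0.11 and 0.36 ± 0.08 for Dbp, and 0.14 ± 0.09 and 0.22 ± 0.04 for Usp2. The TAC minus SHAM test gave unadjusted p-values of 0.3, 0.274 and 0.582, so these were not shown to differ. Per2 had the smallest 12-h amplitude of the clock genes in TAC, 0.010 ± 0.032.

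**Figure D5:**
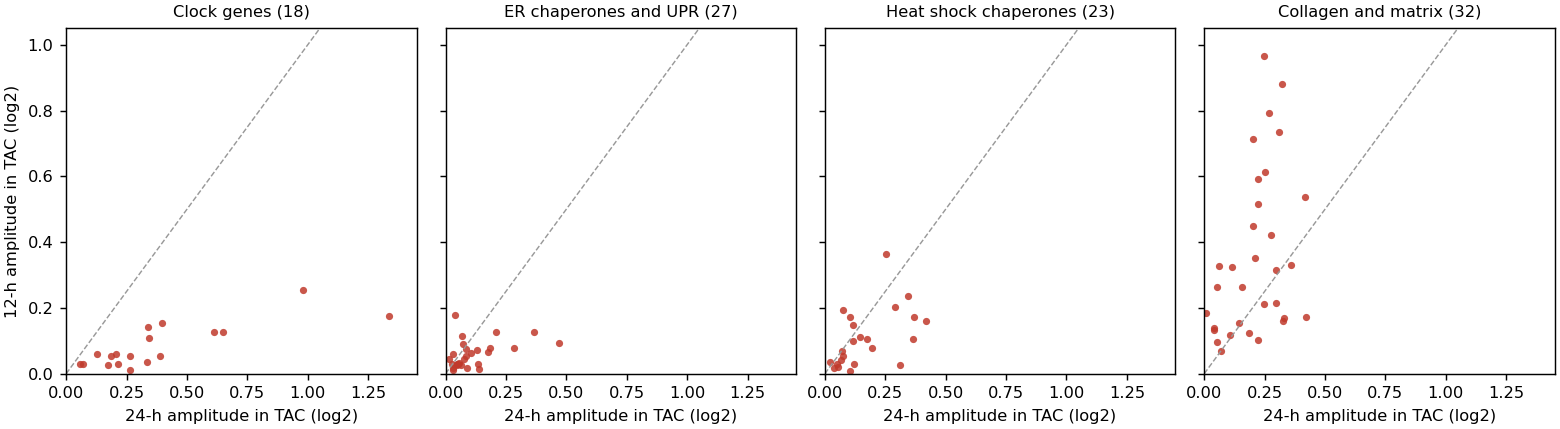
The 12-h amplitude against the 24-h amplitude in TAC hearts (log2, 1 point per gene) for 4 gene lists; the dashed line marks equal amplitudes. All 18 clock genes lie below the line, 23 of the 32 matrix genes lie above it, and unfolded protein response genes lie near the origin.

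In SHAM hearts 0 genes passed the 12-h test in limma, with a smallest adjusted p of 0.135 and 667 genes at an unadjusted p under 0.05. The smallest p belonged to Adam19, a membrane metalloprotease, with an amplitude of 0.07 ± 0.05 in TAC and 0.26 ± 0.04 in SHAM (SE, n = 18 each). Ppp1r3c, a glycogen-targeting phosphatase subunit, followed with 0.20 ± 0.08 in TAC and 0.31 ± 0.05 in SHAM. Of the 10 SHAM genes with the smallest p, 2 (Zbtb22 and Ier3) had an unadjusted p under 0.05 in TAC. Of the 962 TAC genes, 70 were among the 667 SHAM genes, 7.28% of the TAC and 10.5% of the SHAM genes. In 40 of the 70 the peaks of TAC and SHAM lay within 2 h of each other, and in 8 they were over 4 h apart.

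The direct test of TAC minus SHAM 12-h terms was passed by 0 of 12393 genes, with 629 (5.08%) at an unadjusted p under 0.05 and a smallest adjusted p of 0.0619. Of the 10 named genes with the smallest p of this test (adjusted p from 0.131 to 0.227), 10 had the larger 12-h amplitude in TAC, and 7 were among the 20 genes described above. Thbs1, a thrombospondin that activates TGF-beta, was first: it peaked at ZT10.8 in TAC and at ZT4.42 in SHAM, with amplitudes of 0.33 ± 0.08 and 0.14 ± 0.03 (SE, n = 18 each). Its TAC hearts of ZT23 stood at 0.84, 0.49 and 1.02, and 1 heart of ZT03 at 0.55, so the ZT23 group overlapped with that heart.

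The values were also tested for a sign that alternates from 1 time to the next, a pattern with a period of 8 h. With times 4 h apart, this sign holds only 1 phase of an 8-h wave, and faster waves cannot be told from slower ones. The test of this sign was passed by 0 genes in limma (smallest adjusted p 0.556), with 489 genes (3.95%) at an unadjusted p under 0.05. The 962 genes came from a test of both 12-h terms and these 489 of 12393 from a test of 1 term. The counts thus do not single out a period of 12 h.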

How the data were processed

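The members, gene lists and tests were chosen with earlier results of these data known. Per the labels' protocols, Trizol was used to extract RNA, from which biotin-labelled cRNA was made for Affymetrix 1-channel arrays. The deposited table holds log-scale values taken here as log2. Their base, normalization and probe summarisation were not stated in the labels used here. The median of each probe set lay within 1e-06 of 0 over the 18 TAC arrays and also over the 18 SHAM arrays. Array medians ran from -0.0206 to 0.0119 in TAC and from -0.0358 to 0.0275 in SHAM. No 2 arrays held identical values.

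Of 22690 probe sets, 20393 had 1 gene symbol in the platform annotation (13 of them controls, not used), 691 several and 1606 none listed. By Entrez identifier 20351 matched RefSeq. The mean over probe sets was taken for each of 12393 genes, with no filter on low values, since levels had been centred away.

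Each surgery was fitted by itself with limma 3.58.1 in R 4.3.3 (mean, 24-h and 12-h cosine and sine; empirical Bayes without a trend). A moderated F-test of both 12-h terms was adjusted by Benjamini-Hochberg over all genes, with a threshold of 0.05. The difference was tested over all 36 arrays. Standard errors of amplitudes came from the delta method. The number of arrays limits the precision. The p-values set the fitted wave against the spread that the fit leaves among these mice, moderated by that of other genes.

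On simulated data with the spread of the TAC arrays, 83.5% of 200 genes given an amplitude of 0.2 and 100% of 200 given 0.5 were recovered, with 15 false calls among 382. Arrays were simulated as independent. The genes given a wave were taken at random, and many planted waves ease the adjustment for each. The recovered shares thus do not carry over to these data, where 27 genes had an amplitude above 0.5 in TAC and none of them passed.

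Named genes were, by rule, those passing, the smallest p-values in TAC up to 20 in all, up to 3 members of each of the 24 gene lists, the 10 smallest p of the difference and of SHAM, and the clock genes, with clone-like symbols skipped. The text names some of these. Genes named after their values were seen are said to be so. Alternatives were quantile normalization, array centring, array weights, robust and trended empirical Bayes, the replicate block, a model of group means, no 24-h terms, other probe set rules, a filter on low SD, marker and matrix covariates, all 36 arrays, and leaving out arrays. Leaving out arrays with an airway or thymocyte mean above 0.5, and Myh7 as a covariate, were added after seeing the data. Figures were drawn with matplotlib 3.10.9.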

Additional observations from a re-analysis of the deposited data

How the results depend on the processing

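The count of genes passing in TAC, 1 in the fit as described, was 1 with arrays centred on their median, with robust empirical Bayes and with a model of the group means. It was 0 with quantile normalization, an empirical Bayes trend, the replicate block, no 24-h terms, each probe set by itself, the most variable probe set, the matrix or Myh7 covariate, and without arrays whose airway or thymocyte mean was above 1 or above 0.5. It was 2 with atrial and adipocyte covariates, 3 without genes of low SD, 7 with array weights and 128 with all 36 arrays in 1 fit. Of those 128, 90 peaked between ZT8 and ZT14, 14 were matrix genes, and 123 were more variable in TAC than in SHAM. That fit gives both surgeries 1 spread, while 9019 of the 12393 genes had the larger spread in TAC. Leaving out 1 array gave 0 to 39, and leaving out a replicate number 0 to 9.

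In SHAM the count of 0 became 1 with the group means, 2 without genes of low SD, and 0 to 1 on leaving out arrays. The TAC minus SHAM count of 0 became 30 with array weights, 1 with a trend, 1 without genes of low SD, and 0 to 67 on leaving out arrays, 67 without TAC ZT11 replicate 1. The alternation count of 0 became 11 with array weights, 1 without arrays whose airway or thymocyte mean was above 1, and 0 to 1 on leaving out arrays. The causes were not tested.

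Fam117b passed in 14 of 37 alternatives. Of the named genes, Sdha moved its peak to ZT8.10 with the matrix covariate, at an amplitude of 0.023. Same-numbered TAC arrays deviated from their group means with a mean correlation of -0.012 over 45 pairs, with 8 pairs over 0.1. In SHAM the mean was 0.0997, against -0.050 for arrays of other numbers, with 22 of 45 pairs over 0.1. Deviations were taken within each time, so the means for same and other numbers are tied to each other. As not every pair was over 0.1 in either surgery, the numbers were not taken to pair the mice. That rule is strict, and a weaker effect shared by same-numbered arrays would not meet it. The replicate block gave Fam117b an adjusted p of 0.148, above the threshold, and left the SHAM and TAC minus SHAM counts at 0. The 3 points per 12-h cycle, values centred within surgery and a log base taken as 2 limit every amplitude given.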

Other observations

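The marker lists of other cell types give values that no comparison above used. Of 6 measured B cell markers, 1 had an unadjusted 12-h p under 0.05 in TAC and 0 did in SHAM, and of 9 markers of proliferating cells the counts were 1 and 0. Thymocyte markers had 0 of 10 in both surgeries, with a median 12-h amplitude of 0.026 in TAC and 0.24 in SHAM, where 1 array carried thymocyte transcripts. Neutrophil, erythroid and mesothelial markers had 0 of 7, 0 of 4 and 0 of 5 in both surgeries. Skeletal muscle markers had 0 of 10 in TAC and 1 of 10 in SHAM. Of all genes, 7.76% had such a p in TAC and 5.38% in SHAM.

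Of 21 genes of insulin, FOXO and mTOR signalling, 2 had an unadjusted 12-h p under 0.05 in TAC (9.52%, against 7.76% of all genes) and 1 in SHAM. They were led in TAC by Fbxo32, the muscle ubiquitin ligase atrogin-1, with a 12-h amplitude of 0.24 ± 0.07 in TAC and 0.020 in SHAM (SE, n = 18; limma adjusted p = 0.492 in TAC) and a peak at ZT9.07. It stood beside a 24-h amplitude of 0.43 in TAC. Among antioxidant genes, 4 of 21 had an unadjusted p under 0.05 in TAC and 5 of 21 in SHAM. The shares over all genes were 7.76% and 5.38%. Sod2, the mitochondrial superoxide dismutase, led in TAC at 0.12 ± 0.04 with a peak at ZT5.07.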
